A study of Solenopsis invicta with 64 samples.

Results

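The brain and the ovary of the same 8 monogyne gynes were compared by RNA sequencing. Gynes are winged young queens before mating, here of the fire ant Solenopsis invicta, and a monogyne colony has a single egg-laying queen. All 8 animals carried the genotype SB/SB, that is, both copies of their chromosome 16 supergene were of the SB form, which animals of either social form can carry. The 16 libraries, of 64 in the series, were chosen by the labels (monogyne, SB/SB) and paired by the animal code in their titles, which runs 207A, 209A, 222A, 232A, 233A, 235A, 239A and 240A. Per the labels, the gynes were reproductively mature, were caught in the field when mating flights took place, and were frozen there. Each library came from 1 brain or 1 ovary, and the groups used for comparison were polygyne SB/SB (7 animals, without 104D), polygyne SB/Sb (8) and polygyne Sb/Sb (8), treated in the same way. Animal 104D was left out because its ovary library held 73573 counts in all. RNA of brains was extracted with the RNeasy Micro Kit and RNA of ovaries with the RNeasy Mini Kit, so extraction kit and tissue cannot be told apart in any brain-ovary difference given here. Both tissues are whole organs of many cell types, in which fewer cells of a type and less RNA per cell cannot be told apart.

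The insect brain is a neural tissue of neurons and glia that receives the input of the antennae and eyes. The ovary of a young queen holds germ cells, their nurse cells and the follicle cells around them, and growing oocytes take up the yolk precursor vitellogenin from the blood through the vitellogenin receptor. Odorant-binding proteins are small soluble proteins best known from the fluid around olfactory neurons. Insulin receptors pass on nutritional signals that bear on ovary growth in insects.

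Total counts ranged between 15.5 and 26.9 M in the brains (median 21.3 M) and between 13.2 and 22.6 M in the ovaries (median 18.3 M). Levels are given in CPM, that is, relative to the total count of the library after scaling with TMM factors, which correct for differences in composition, as mean ± SD over 8 animals unless stated. Because a count also grows with transcript length, levels are compared between tissues and animals for 1 gene and not between genes. The one tissue marker that could be identified by name, the vitellogenin receptor gene, was higher in the ovary of every animal. Markers of neurons, glia, germ cells, follicle cells, muscle, fat body and hemocytes could not be identified by name, and the brain label was not checked by a marker.

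Brain and ovary of the monogyne gynes differed at most genes. Among 10212 tested genes, the brain level was higher at 3695 (36.2%) and the ovary level at 4015 (39.3%), at an adjusted p under 0.05 (edgeR quasi-likelihood test with the animal as a block, Benjamini-Hochberg adjustment). Tested against a 2-fold difference, 2245 genes (22.0%) were higher in the brain and 2360 (23.1%) were higher in the ovary. The median log2 difference, brain minus ovary, was 2.76 among the genes past 2-fold in the brain and -2.51 among those past 2-fold in the ovary. Genes past 2-fold in the brain held 43.9% of all brain counts and 9.72% of all ovary counts. Genes past 2-fold in the ovary held 4.84% of brain counts and 29.1% of ovary counts. The values of brain and ovary did not overlap at all at 5323 tested genes (52.1%). The median log2 difference over all tested genes was -0.10. TMM scaling assumes that most genes do not differ, so this median and the balance between the directions depend on the scaling. The direction with more calls also changed with the setting. Without the animal block 3914 genes were called for the brain and 3870 for the ovary, and with a mean count of at least 50 the numbers were 3620 and 3527.

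**Figure D1:**
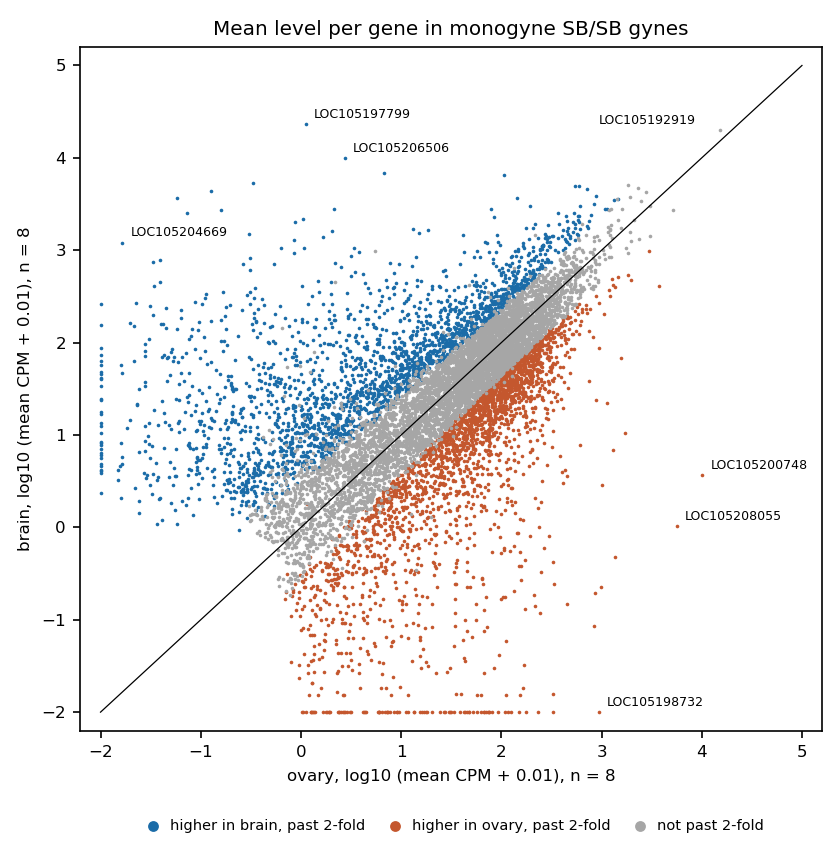
Mean level of each of the 10212 tested genes in the brain (vertical axis) and in the ovary (horizontal axis) of 8 monogyne SB/SB animals, as log10 of the mean CPM plus 0.01; the line marks equal levels. Blue genes (2245) were past 2-fold in the brain and orange genes (2360) past 2-fold in the ovary, and genes along the left and bottom edges had no counts in 1 of the tissues.

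The 10 brain genes named here had the smallest p among called genes with at least 50 CPM in the brain. Their abundance in the brain was therefore set by the choice. Their ovary means ran between 0.00637 CPM at LOC105204669 and 4.55 CPM at LOC105195077. LOC105204669 on chromosome 3 had a lowest, median and highest level of 872, 1168 and 1707 CPM in the brains, while the 8 ovaries together held 1 count. The ratio of summed counts, brain over ovary, was 192792, with an exact 95% counting interval of 34602 to 7614910. LOC105197765 on chromosome 10 had 1068, 1579 and 2175 CPM (lowest, median and highest) in the brains and 1.17, 2.12 and 3.08 CPM in the ovaries. Every brain stood above every ovary at both genes, which the choice by smallest p favours. The log2 difference of LOC105197765 was 9.62 ± 0.20 (SE, adjusted p = 7.47e-11), and LOC105194889 on chromosome 4, at 465 ± 101 CPM in the brain and 1.48 ± 0.368 CPM in the ovary, differed by 8.29 ± 0.18 (adjusted p = 8.49e-11).

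Some further brain genes were detected in every ovary, while others had only a few counts over all ovaries. The gene with the smallest p of the 10, LOC105196128, was detected in every ovary. LOC105196128 on chromosome 4 averaged 444 ± 82.6 CPM in the brain and 4.31 ± 0.905 CPM in the ovary, and LOC105195077 on chromosome 5 averaged 245 ± 57.9 CPM in the brain and 4.55 ± 1.37 CPM in the ovary. Their log2 differences were 6.69 ± 0.11 and 5.77 ± 0.12 (SE, adjusted p of 2.6e-11 and 7.47e-11). LOC105199670, LOC105194802, LOC105200837 and LOC105194827 completed the 10 brain genes with the smallest p, together with LOC105203994, an odorant-binding protein gene described with the named genes. LOC105194802 averaged 616 ± 210 CPM in the brain and 0.3 ± 0.218 CPM in the ovary. LOC105199670 averaged 409 ± 164 CPM in the brain, and the 8 ovaries held 4 counts. LOC105194827 and LOC105200837 differed widely among brains. LOC105194827 reached 903 CPM in the brain of 207A against 290 CPM in the next highest brain, with 3 counts over all ovaries. LOC105200837 ran between 10.5 and 378 CPM in the brains, lowest in 209A and 207A, with 5 counts over all ovaries.

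Ovary genes with the smallest p were of 2 kinds: some were all but undetected in the brain and others stood there at a lower level. LOC105199561 on chromosome 13 had 1 count over the 8 brains, against 265, 315 and 418 CPM (lowest, median and highest) in the ovaries. LOC105203588 on chromosome 3, LOC105200364 on chromosome 11 and LOC105205241 on chromosome 6 also had 1 count each over all brains, and averaged 154 ± 8.33, 163 ± 15.2 and 112 ± 11.5 CPM in the ovary. Every ovary stood far above every brain at these 4 genes. LOC105194159 on chromosome 13 had 4 counts over all brains and averaged 168 ± 30.8 CPM in the ovary.

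The other 5 were detected in every brain. LOC105193824, which lies on chromosome 16 with the supergene, had 3.89, 6.45 and 12.1 CPM (lowest, median and highest) in the brains and 1145, 1247 and 1478 CPM in the ovaries, a log2 difference of -7.62 ± 0.21 (SE, adjusted p = 3.89e-10). LOC105194764 on chromosome 1 averaged 19.4 ± 4.44 CPM in the brain and 413 ± 37 CPM in the ovary (-4.44 ± 0.12, adjusted p = 4.28e-10). LOC105197872, LOC105198495 and LOC105201885 averaged 42.1, 29.1 and 17.9 CPM in the brain and 396, 328 and 209 CPM in the ovary, and their log2 differences lay between -3.25 and -3.56. Brain and ovary values overlapped at none of the 10 ovary genes. The choice by smallest p favours this, and 5323 of all 10212 tested genes (52.1%) also had no overlap.

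Genes restricted to 1 tissue were about as common in the brain as in the ovary. With a mean of at least 1 CPM in the brain, 146 genes had 3 counts or fewer over the 8 ovaries, and 155 genes had a mean of at least 1 CPM in the ovary with 3 counts or fewer over the 8 brains. At a mean of at least 10 CPM, the numbers were 50 for the brain and 61 for the ovary. A total of 3 counts over a tissue corresponds to 0.02 CPM in the brains and 0.0185 CPM in the ovaries. LOC105199537 on chromosome 4, named by the same rule as LOC105204669, had 340 ± 297 CPM in the brain with 1 count over all ovaries. Its brain values ran between 0.336 CPM in 209A and 722 CPM in 222A, with 3.07 CPM in 207A and 31 CPM in 233A, so it was far below the other brains in those 3 animals. It did not pass the filter on low counts, which asks for counts in as many libraries as 1 tissue has, and was not tested in the main fit. LOC105204062 on chromosome 6 had 126 to 463 CPM in the brains and 2 counts over all ovaries, and LOC105193683, which is not in the gene table, had 182 to 387 CPM in the brains and no count in any ovary, at least 14252-fold higher in the brain against 3 counts over the ovaries.

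On the ovary side, LOC105198732 on chromosome 7 had no count in any brain and 656, 976 and 1188 CPM (lowest, median and highest) in the ovaries, at least 47833-fold higher in the ovary. LOC105202816, a long noncoding RNA gene on chromosome 16, also had no count in any brain and had 172 to 441 CPM in the ovaries, at least 16535-fold higher. LOC105204041 on chromosome 6 and LOC105205777, which is not in the gene table, likewise had no brain counts, with 180 to 272 and 156 to 189 CPM in the ovaries. All these bounds cover counting error only.

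Few genes took a large share of a library, and 1 of them led in both tissues. LOC105197799 on chromosome 10 held between 1.09% and 3.5% of the counts of a brain (median 1.96%), with 12229 to 40328 CPM in the brains and 0.522 to 2.73 CPM in the ovaries (log2 difference 14.40 ± 0.52 SE, adjusted p = 2e-09). LOC105206506 on chromosome 16 and LOC105195084 on chromosome 5 averaged 9872 ± 3051 and 6919 ± 1384 CPM in the brain and 2.73 ± 0.68 and 6.8 ± 2.04 CPM in the ovary. LOC105195168 on chromosome 5 was led by a single animal in the brain, with 18252 CPM in 207A and 2614 to 7204 CPM in the other brains, against 59.7 to 144 CPM in the ovaries. All 4 were higher in the brain in every animal.

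In the ovary, LOC105200748 on chromosome 2 held between 0.955% and 1.43% of a library, at 8296 to 12585 CPM, and had 0 to 8.3 CPM in the brains (log2 difference -11.73 ± 0.66 SE, adjusted p = 4.38e-08). LOC105208055 on chromosome 11 had 0 to 5.51 CPM in the brains, highest in 235A, and 4209 to 7114 CPM in the ovaries. LOC105196632 on chromosome 6 averaged 409 ± 121 CPM in the brain and 3786 ± 631 CPM in the ovary. LOC105194327 on chromosome 15 had a smaller difference, 2712 ± 435 CPM in the brain and 5161 ± 274 CPM in the ovary (-0.94 ± 0.10, adjusted p = 9.06e-06), and it did not pass the test against 2-fold (adjusted p = 0.695).

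LOC105192919, which is not in the gene table, was the gene with most counts in the ovary and the next after LOC105197799 in the brain. Its levels were 7149, 10841 and 72675 CPM (lowest, median and highest) in the brains and 5728, 10913 and 47777 CPM in the ovaries. The highest brain was that of 239A and the highest ovary that of 233A, so different animals led in each tissue and the values overlapped. The log2 difference was 0.33 ± 0.37 (SE, adjusted p = 0.437), and without animal 233A it was 0.63 and called. It took 5.78% of the counts of the brain of 239A and 5.19% of the counts of the ovary of 233A.

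**Figure D2:**
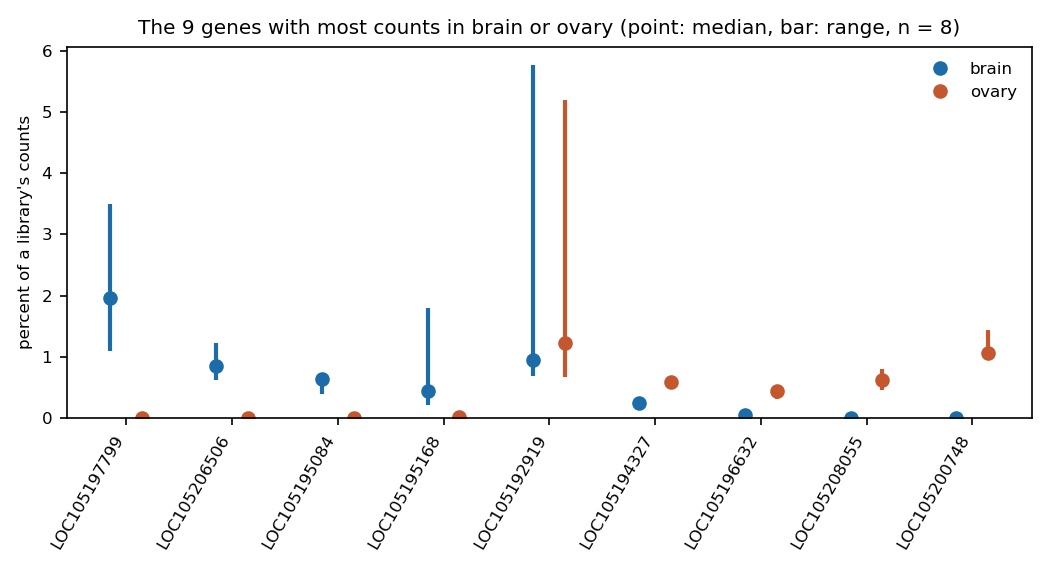
Percent of a library's counts taken by each of the 9 genes that lead the brain or the ovary of 8 monogyne SB/SB animals; points are medians and bars run from the lowest to the highest library. Of the 9 genes, 4 take their counts in the brain and 4 mostly in the ovary, and LOC105192919 is high in both, with 5.78% and 5.19% in its highest brain and ovary.

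Of 9 genes that the gene table lists under a further name, 8 could be tested, of which 4 were higher in the brain and 3 higher in the ovary. The shares of all genes called in each direction are the 36.2% and 39.3% given above. The odorant-binding protein gene LOC105203994 on chromosome 6 had 844, 1235 and 1646 CPM (lowest, median and highest) in the brains and 0.525, 0.748 and 1.39 CPM in the ovaries, a log2 difference of 10.58 ± 0.22 (SE, adjusted p = 8.49e-11). A second odorant-binding protein gene, LOC105195107 on chromosome 5, had 2.21 to 54.7 CPM in the brains and 0.283 to 2.36 CPM in the ovaries (3.46 ± 0.79, adjusted p = 0.00208). It was higher in the brain of all 8 animals, but its lowest brain, that of 207A, fell below its highest ovary.

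The vitellogenin receptor gene LOC105200757 on chromosome 2 had 0, 7.18 and 14.9 CPM (lowest, median and highest) in the brains and 41.1, 48.9 and 74.9 CPM in the ovaries. Every ovary stood above every brain, and the brain of 235A had no counts. The log2 difference was -3.17 ± 0.60 (SE, adjusted p = 5.77e-04).

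Among detoxification genes, LOC105197561 (GSTS1, a sigma-class glutathione S-transferase) on chromosome 5 was abundant in both tissues, at 1433 ± 349 CPM in the brain and 400.3 ± 101 CPM in the ovary (log2 difference 1.85 ± 0.18 SE, adjusted p = 3.28e-06). The cytochrome P450 genes went in opposite directions and varied by animal. LOC105195645 (CYP6A14) on chromosome 4 had 0 to 4.67 CPM in the brains and 3.41 to 174 CPM in the ovaries (-5.92 ± 0.86, adjusted p = 7.87e-05). Its ovaries fell into 2 sets: 151, 140 and 174 CPM in 207A, 233A and 239A, and no more than 14.5 CPM in the other 5. The brains with any counts were those of 207A, 233A, 239A and 240A, at 2.94, 1.05, 3.19 and 4.67 CPM. LOC105193893 (CYP4AB2) on chromosome 6 had 0.194 to 32.4 CPM in the brains and 0.0557 to 0.712 CPM in the ovaries (3.28 ± 1.12, adjusted p = 0.0199). It was higher in the brain in 6 of 8 animals, and the call was lost without 209A (log2 difference 2.92).

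Both insulin receptor genes were low. LOC105195102 (InR-2) on chromosome 5 had 0.378, 1.99 and 11 CPM (lowest, median and highest) in the brains and 4.06, 5.67 and 6.62 CPM in the ovaries. The ovary was higher in 7 of 8 animals, with 207A as the exception, and the log2 difference was -1.42 ± 0.52 (SE, adjusted p = 0.0271). That call was lost without the animal block (-0.81) and without any 1 of 209A, 232A, 239A and 240A (between -1.14 and -1.39). LOC105207962 (InR-1) on chromosome 8 had 0.426 to 10.5 CPM in the brains, with 7.75 CPM in 207A and 10.5 CPM in 233A and no more than 1.91 CPM in the other brains, and 0.23 to 1.47 CPM in the ovaries. Its log2 difference of 1.11 ± 0.70 did not pass the test (SE, adjusted p = 0.167), but did without the animal block, at 2.07. LOC105199703 on chromosome 16, listed as Ag5 and CRVP, had no count in any of the 16 libraries and was not tested.

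**Figure D3:**
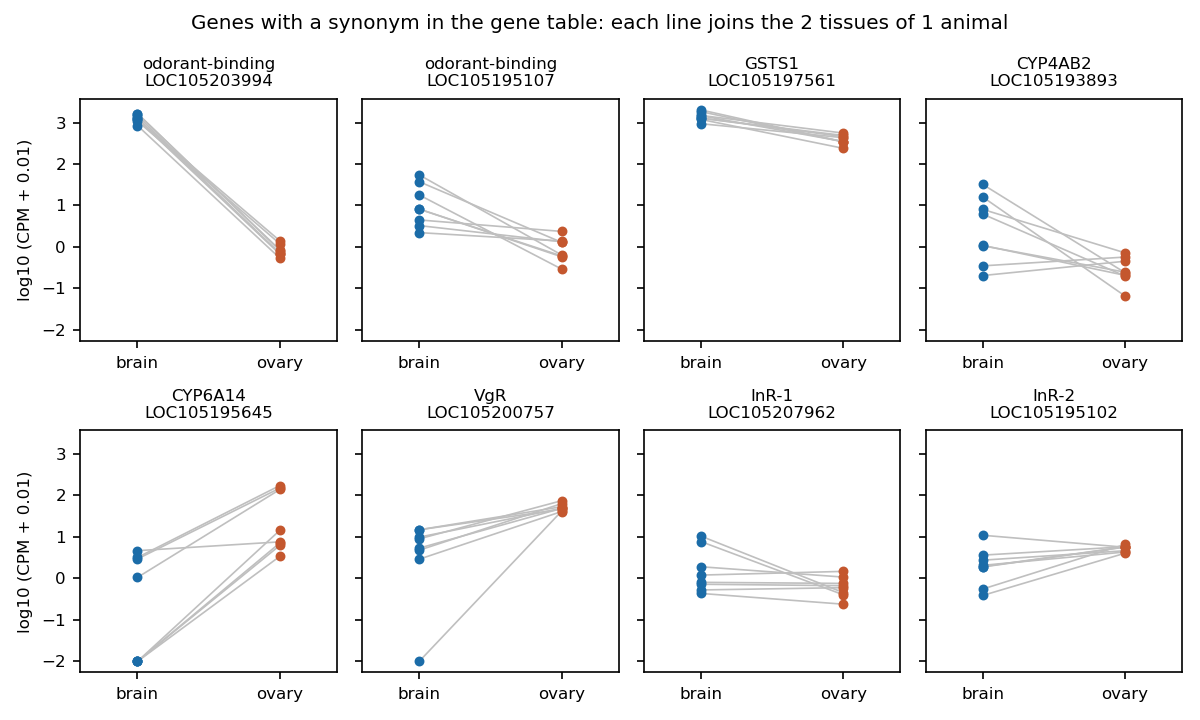
Level of 8 genes with a known name in the brain (left, blue) and ovary (right, orange) of each of 8 monogyne SB/SB animals, as log10 of CPM plus 0.01; each line joins both tissues of an animal. Brain and ovary are fully separate for LOC105203994, GSTS1 and the vitellogenin receptor (VgR), while the ovaries of CYP6A14 form an upper set of 3 animals and a lower set of 5.

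Some genes stood at nearly the same level in both tissues. Of 2934 genes that averaged at least 50 CPM in each tissue, 744 were not called, a share near that of all tested genes (2502 of 10212). A gene that was not called need not stand at an equal level. The 6 that were farthest from a 2-fold difference were LOC105207985, LOC105199055, LOC105201977, LOC105197435, LOC105202683 and LOC105193678. LOC105207985 on chromosome 8 averaged 457 ± 40.8 CPM in the brain and 457 ± 23 CPM in the ovary (log2 difference -0.00 ± 0.08 SE), and LOC105199055 on chromosome 2 averaged 483 ± 48.8 CPM in the brain and 485 ± 21.3 CPM in the ovary (-0.01 ± 0.08). The other 4 averaged 154 to 204 CPM in the brain and 155 to 203 CPM in the ovary. None was called (adjusted p of 0.901 to 0.977), and their brain and ovary values overlapped. These levels are relative to the other genes of a library and do not measure transcripts per cell.

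Brains differed more from each other than ovaries did. Over the 2934 genes with at least 50 CPM in both tissues, the median SD over animals of log2(CPM + 0.5) was 0.30 in the brain and 0.14 in the ovary, and the SD was larger in the brain at 93.5% of the genes. The correlation of a library with the mean of the other 7 of its tissue was taken across all 10212 tested genes, including those near 0 in that tissue. It lay between 0.938 and 0.968 for brains and between 0.974 and 0.987 for ovaries, with no overlap. The brain farthest from the others on this measure was that of 233A, and so was the ovary of 233A. Kit and tissue cannot be told apart in this spread.

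Libraries of brains were also more concentrated on their leading genes. The 100 genes with most counts held 23.4%, 25.6% and 30.2% (lowest, median and highest) of the counts of a brain and 16.4%, 17.6% and 22.1% of the counts of an ovary. The brain value was higher in 8 of 8 animals, by 7.89 percentage points on average (two-sided exact paired permutation test, p = 0.00781, the smallest this design can give; adjusted p = 0.0234 over 3 measures). The 10 genes with most counts held 6.48% to 13% of a brain and 4.85% to 9.9% of an ovary, higher in the brain in 7 of 8 animals, which did not pass (exact permutation test, adjusted p = 0.0547). Fewer genes had at least 1 count in the brain, where 10977 ± 411 were detected, against 11568 ± 112 in the ovary (exact permutation test, adjusted p = 0.0234, lower in the brain in 7 of 8 animals). With at least 10 counts asked for, the sign turned, with 9973 ± 317 detected per brain and 9850 ± 113 per ovary (exact permutation test, adjusted p = 0.445). The brains had more counts in all (median 21.3 M against 18.3 M), and this measure was not repeated at equal depth.

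Beside the difference between tissues, animals differed from each other at a small share of genes in a way that brain and ovary shared. In the same fit, 501 of 10212 genes passed 0.05 without adjustment (edgeR quasi-likelihood test of the 7 animal coefficients). By chance alone, about 1 in 20 would pass. At an adjusted p under 0.05, 44 genes (0.431%) had an animal effect. The count was 26 without 235A and 28 without 239A, while voom gave 150 and DESeq2 gave 302. Of the 44 genes, 38 averaged at least 1 CPM in both tissues, and the other 6 averaged less in the ovary. LOC105200837 and LOC105200113 are among these 6, at 159 ± 139 and 161 ± 139 CPM in the brain with 5 and 2 counts over all ovaries. Another 3 of the 6 had the same low animals in both tissues, and the effect was not tested in each tissue alone.

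LOC105204053 on chromosome 6 had the smallest p. It had 31.9, 31 and 26.7 CPM in the brains of 209A, 232A and 235A and 291 to 482 CPM in the other 5 brains. The ovaries of the same 3 animals had 15.6, 15.6 and 11.3 CPM, and the other 5 ovaries had 130 to 232 CPM. The 3 low animals were therefore the same in both tissues, with no overlap with the other 5 (animal effect, adjusted p = 6.08e-05). LOC105207129, which is not in the gene table, was low in 207A and 222A, with 0.866 CPM and no counts in their brains and 0.0656 and 0.0475 CPM in their ovaries, against 126 to 242 CPM in the other brains and 11 to 26.9 CPM in the other ovaries (adjusted p = 1.12e-04).

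LOC105196897 on chromosome 5 was low in 209A and 240A, at 4.04 and 1.23 CPM in the brain and 4.29 and 3.19 CPM in the ovary, while the other animals had 30.3 to 108 CPM in the brain and 38.5 to 115 CPM in the ovary. LOC105198680 on chromosome 1 was lowest in 240A in both tissues, at 24.1 CPM in the brain and 28.7 CPM in the ovary, and its animal effect did not pass without 240A (adjusted p = 0.0705). LOC105200102 on chromosome 11 was high in 232A, 233A and 239A, at 96.7, 94.5 and 120 CPM in the brain and 42.8, 46.3 and 55.1 CPM in the ovary, and was at or under 6.24 CPM in both tissues of the other 5. The low animals differed from gene to gene.

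**Figure D4:**
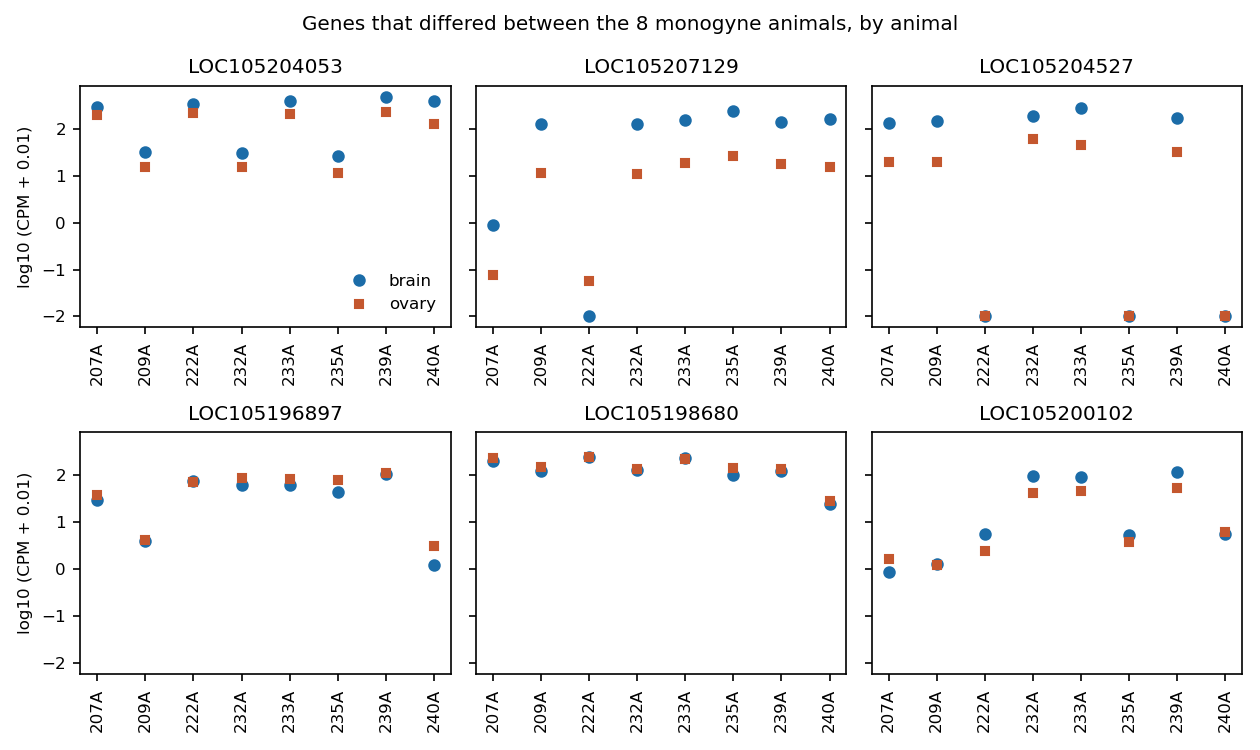
Level of 6 genes with an animal effect in the brain (blue circles) and ovary (orange squares) of each monogyne SB/SB animal, as log10 of CPM plus 0.01. At LOC105204053, LOC105207129, LOC105204527 and LOC105196897 the animals under 10% of the highest library are the same in brain and ovary, for example 209A, 232A and 235A at LOC105204053; at LOC105198680 and LOC105200102 the brain of 240A is under that mark and its ovary is not.

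Counting as low a library under 10% of the highest of its tissue, 25 of the 38 genes had low animals in both tissues, and in 16 of these the low animals were exactly the same. Including the genes under 1 CPM in the ovary, 19 genes had the same low animals in both tissues. Of 3 pairs of called genes that are next neighbours, 2 pairs shared their low brains. LOC105202966 and LOC105202964, next to each other on chromosome 12, were both low in 222A and 232A, and LOC105203214 and LOC105203213, next to each other on chromosome 16, both had their only low brain in 233A. The genes were chosen by an animal effect fitted jointly to both tissues, which favours genes with the same low animals in both. The counts of shared low animals are therefore a description of the chosen genes, and no share over all tested genes was taken. These groupings were made after the values were seen and have no test.

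The largest such group was of 6 genes, LOC105204527, LOC105198266, LOC105193680, LOC105206458, LOC105206461 and LOC105206662, which shared 222A, 235A and 240A as their low animals. They lie on chromosomes 5, 14, 16, 3 and 3, and LOC105206662 is not in the gene table. LOC105204527 had no count in either tissue of those 3 animals, and had 132 to 274 CPM in the brains and 19.6 to 60.3 CPM in the ovaries of the other 5 (animal effect, adjusted p = 2.42e-04). LOC105198266 had no more than 0.0648 CPM in the brains of the 3 and 130 to 327 CPM in the other 5, with at most 1.33 CPM and 11.3 to 50 CPM in the ovaries. LOC105193680 had at most 3.52 CPM in the brains of the 3 and 79.6 to 228 CPM in the other 5. The remaining 3 genes were lower in level, with 3.36 to 16 CPM in the brains of the 5 animals and no count in the brains of the 3.

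In the 23 polygyne animals, which took no part in the choice of these 6 genes, the same cut-offs gave a sparser picture. LOC105204527, LOC105206458 and LOC105206662 were low in both tissues in 22 of 23 animals, and LOC105198266 and LOC105193680 in 21 of 23. The 1 animal that was low in neither tissue was the same for all 5 genes, the animal labelled polygyne SB/SB with the code 16D. Because it stands apart in this way, the comparisons with polygyne animals are also given without it, as an alternative chosen after seeing the data. LOC105206461 differed, being low in both tissues in 6 of 23 animals and in neither in 16. Other animal genes were also uneven among polygyne animals: LOC105207129 was low in both tissues in 5 of 23 and LOC105196897 in 5 of 23, whereas no polygyne animal was low in both tissues at LOC105204053.

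The brain-ovary differences of the monogyne gynes were also found in polygyne SB/SB animals, which share the genotype and no library. Of the 3598 genes called higher in the brain in monogyne gynes that could be tested in 7 polygyne SB/SB animals, 2764 (76.8%) were called higher in the brain there and 0 were called higher in the ovary. The background in those animals was 29.3% of 10287 genes for the brain. Of the 3961 genes called higher in the ovary, 3130 (79%) were called the same way and 0 the opposite way, beside a background of 32.5% for the ovary. Without 16D the shares were 78.4% and 79.5%, again with 0 genes the opposite way. Seen from the polygyne side, 91.6% of the 3016 brain calls and 93.5% of the 3346 ovary calls were called the same way in monogyne gynes.

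A direct test of the difference between tissue differences, monogyne minus polygyne SB/SB, was made by edgeR with the animal as a block. It called 0 of 11793 genes (0%), with a smallest adjusted p of 0.561. Without adjustment, 679 of the 11793 passed 0.05, where chance alone would give about 1 in 20. Voom called 0 genes, edgeR without the animal block 1 and DESeq2 8. A p that misses the threshold does not show that the tissue differences are equal. Against the mean of the 3 polygyne groups, which includes animals with Sb, 1196 of 11793 genes passed 0.05 without adjustment. After adjustment, 19 genes (0.161%) were called, 14 with a positive and 5 with a negative value. The count was 163 with voom, 230 with DESeq2, 114 without the animal block and 24 without 16D, while against polygyne SB/SB it was 0 without 16D as well. Monogyne animals all lack Sb, so here social form and genotype cannot be told apart.

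Of the 5 called genes of this contrast with a negative value, 4 lie on chromosome 16, and LOC105203617 lies on chromosome 1. Chromosome 16 holds 770 of the 8927 placed genes tested in the fit of the 16 monogyne libraries. The 3 negative genes among the 6 with the smallest p are on chromosome 16, and their levels differed among polygyne genotypes. Values here are scaled over 62 libraries. LOC105199339, a long noncoding RNA gene, averaged 0.316 ± 0.293 CPM in monogyne brains, and 1.29 ± 1.3, 9.2 ± 2.14 and 20.6 ± 7.52 CPM in polygyne SB/SB (n = 7), SB/Sb and Sb/Sb brains. Its ovary means were 2.22 ± 0.901 CPM in monogyne animals and 1.75, 1.61 and 0.8 CPM in the polygyne groups in the same order (difference of tissue differences -5.46 ± 0.75 log2, SE, adjusted p = 1.94e-04). LOC105206510 averaged 6.94 ± 2.38 CPM in monogyne brains and 6.13, 15.5 and 27.8 CPM in the polygyne brains, and 82 ± 13.9 CPM in monogyne ovaries and 57.5, 38.2 and 26.8 CPM in the polygyne ovaries (-2.09 ± 0.29, adjusted p = 1.94e-04). LOC105199797 showed a smaller difference (-0.74 ± 0.13, adjusted p = 0.00708), with ovary means of 242 CPM in monogyne animals and 206, 165 and 129 CPM in the polygyne groups. In all 3, monogyne and polygyne SB/SB means were closer to each other than to those of Sb/Sb animals.

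Of the 14 genes with a positive value, 13 were called higher in the brain in monogyne gynes, and at 12 the ovary mean was lowest there. The remaining gene, LOC105196524, did not pass between the tissues of monogyne gynes (log2 difference 0.38 ± 0.30 SE, adjusted p = 0.268, edgeR over 62 libraries). A positive value means a larger brain-minus-ovary difference in monogyne gynes, so the choice of these genes itself favours both counts. Over all 11793 genes of that fit, 3812 were called higher in the brain in monogyne gynes. No such share was taken for the ovary means. LOC105205675 on chromosome 5 averaged 168 ± 31.4 CPM in monogyne brains and 172, 178 and 168 CPM in polygyne SB/SB, SB/Sb and Sb/Sb brains. Its ovary means were 37.3 ± 9.97 CPM in monogyne animals and 67.6, 81.4 and 102 CPM in the polygyne groups (1.12 ± 0.19, SE, adjusted p = 0.00708). LOC105199976 on chromosome 5 averaged 369 ± 105 CPM in monogyne brains and 284, 301 and 303 CPM in the polygyne brains in the same order. Its ovary means were 0.315 ± 0.272 CPM in monogyne animals and 0.589, 1.43 and 1.8 CPM in the polygyne groups (edgeR, 2.30 ± 0.43, adjusted p = 0.0158). LOC105196318 on chromosome 8 averaged 78.4 ± 19.8 CPM in monogyne brains and 29.1, 40.3 and 51.5 CPM in polygyne brains. Its ovary means were 19.1 ± 4.42 CPM in monogyne animals and 15.9, 32.1 and 39.4 CPM in the polygyne groups, so the groups differed in both tissues (1.48 ± 0.29, adjusted p = 0.0227).

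**Figure D5:**
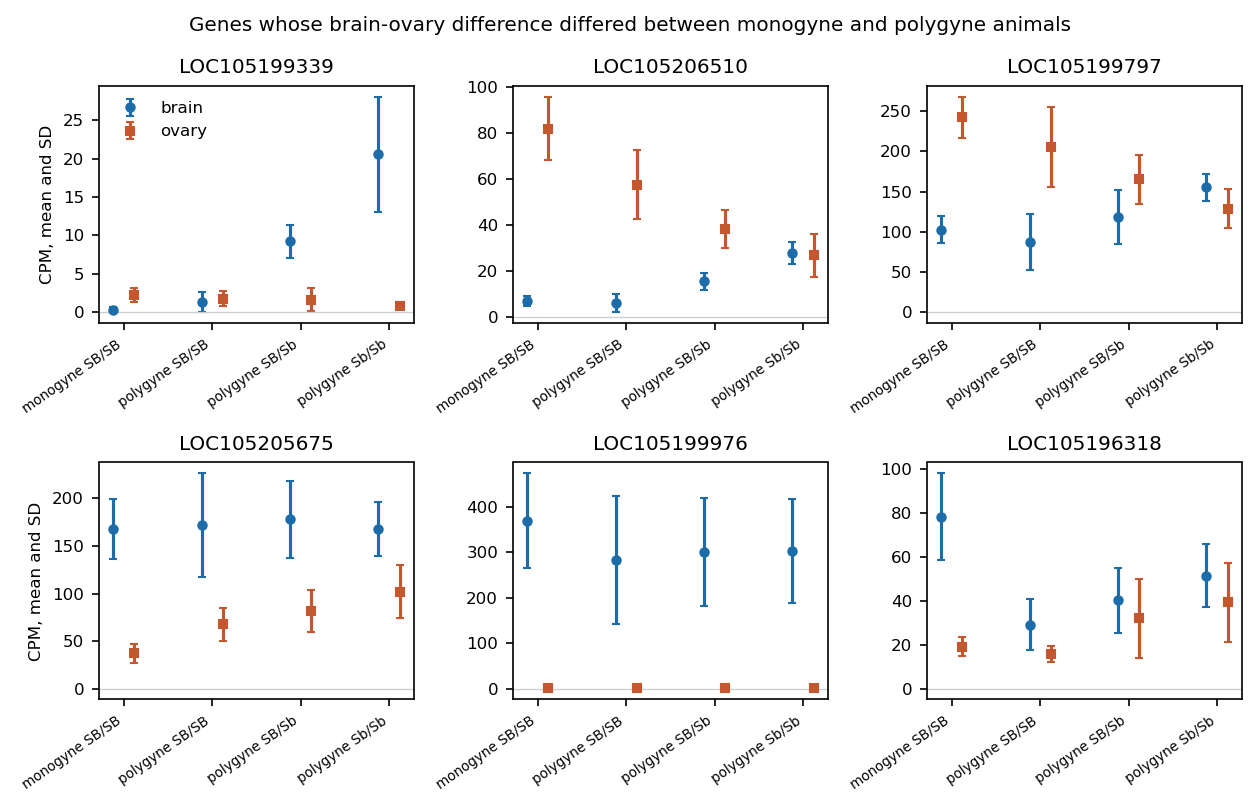
Mean and SD of CPM in the brain (blue circles) and ovary (orange squares) of monogyne SB/SB (n = 8), polygyne SB/SB (n = 7), SB/Sb (n = 8) and Sb/Sb (n = 8) animals for 6 genes; each panel has its own linear axis. In the upper row, brain means are higher and ovary means lower in Sb/Sb than in monogyne animals, and at LOC105205675 the ovary means differ while the brain means stay between 168 and 178 CPM.

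Genes of the brain and of the ovary were found on all 16 chromosomes. Of 8927 tested genes with a chromosome, 21.4% were past 2-fold in the brain and 23.2% in the ovary. By chromosome the brain share ran between 15.7% (88 of 561 genes, chromosome 7) and 26.3% (110 of 418, chromosome 10), and the ovary share between 19.1% (chromosome 9) and 26.9% (chromosome 13). Chromosome 16, which carries the supergene, had 22.1% and 23.1% of its 770 tested genes past 2-fold in the brain and in the ovary, near the shares of all placed genes. Of 107 tested long noncoding RNA genes, 40 (37.4%) were past 2-fold in the brain and 32 (29.9%) in the ovary, where 21.1% and 23.1% of 8810 protein-coding genes were. No test was made of these shares.

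Genes past 2-fold were followed by a gene of the same tissue more often than their share of all genes, with no test made. After a gene past 2-fold in the brain, the next tested gene was past 2-fold in the brain in 29% of 1907 cases, against 21.4% of all placed genes, and for the ovary the values were 27.8% of 2066 cases and 23.2%. Runs of 5 or more such neighbours numbered 15 for the brain and 13 for the ovary, and the runs named here were picked after their values were seen. The longest brain run held 9 genes, on chromosome 1. A run of 8 brain genes on chromosome 4 ran from LOC105194873, at 353 CPM in the brain and 1.5 CPM in the ovary, to LOC105200153, and included LOC105194866, LOC105194865 and LOC105194863, at 87.1, 77.3 and 152 CPM in the brain with 0, 10 and 2 counts over all ovaries. A run of 7 on chromosome 3 held LOC105193621, at 2529 CPM in the brain with 10 counts over all ovaries, and its neighbour LOC105193620, at 81.1 CPM with 3 counts.

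On the ovary side, a run of 7 genes on chromosome 8 was at or near 0 in the brain but for its last member. LOC105198133, LOC105198132, LOC105198131 and LOC105197172 had no count in any brain and averaged 1.89, 11.6, 124 and 52.1 CPM in the ovary. Their neighbours LOC105198134 and LOC105197171 had 29 and 13 counts over all brains and averaged 65.3 and 241 CPM in the ovary. The brain counts of each of these neighbours came from a single brain. The last gene of the run, LOC105197170, stood at 30.8 CPM in the brain and 112 CPM in the ovary. On chromosome 16 a run of 6 ovary genes included LOC105194784, with no brain counts and 48 CPM in the ovary, and LOC105193214, at 24.3 CPM in the brain and 397 CPM in the ovary. Whether close copies or overlapping neighbours share reads was not tested.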

How the data were processed

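The deposited files hold raw counts per gene, 1 file per library, with no normalization by the authors. The tools named by the authors, per the submitters' processing notes, are Trimmomatic 0.32 (trimming), STAR 2.5.3a (alignment) and featureCounts (counting); the genome build and the strand setting are not given in the sources used here. Per the labels' protocols, libraries followed Smart-seq2, which amplifies cDNA and uses no molecular identifiers, so all intervals cover counting error only; reads of overlapping or antisense genes cannot be told apart. Of 15710 rows, 198 are transfer RNAs, with 0.000137% of the counts of the 16 libraries. Symbols were looked up in RefSeq's genes of UNIL_Sinv_3.0, a table that holds 11895 of 15512 LOC symbols and gives chromosome, order, biotype and some synonyms. It gives no product names, so of 16 gene lists by product name 1 matched, with 2 genes, and the planned protein and promoter features were not used here.

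Counts of the 16 libraries were fitted with edgeR 4.0.16 (R 4.3.3): TMM, filterByExpr by tissue at a minimum count of 10, animal as a block plus tissue, quasi-likelihood F-tests, Benjamini-Hochberg adjustment over all genes tested, threshold 0.05; glmTreat tested against a 2-fold difference. Pairing comes from the animal code in the titles. Deviations of brain and ovary from their tissue means correlated between 0.00929 and 0.291 within animals, over 0.1 in 7 of 8, and 3 of 8 brains correlated best with their own ovary. The median was 0.216 within animals and -0.02 between different animals. Some pairs of different animals also passed 0.1, up to 0.32 for the brain of 239A with the ovary of 233A. Polygyne contrasts used 62 libraries of 31 animals with 1 tissue coefficient per animal group. Library measures were compared with scipy 1.17.1. The model scripts were tested on simulated data in which few genes differed and all libraries had the same spread. That setting is simpler than these data, so it does not test the scaling or the shared spread used here. Alternatives were RLE scaling, other filters, no block, each animal left out, polygyne animal 16D left out (chosen after seeing the data), DESeq2 1.42.0 and limma 3.58.1 (voom). p-values treat the animals as separate; whether some share a colony was not tested.

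Genes were named by a rule: the 10 smallest p per direction with at least 50 CPM in the higher tissue, the 5 with most counts per tissue, the 5 highest with 3 counts or fewer in the other tissue, all with a synonym, the 8 smallest p of the animal effect with at least 10 CPM, the 6 smallest p per polygyne contrast, and the 6 farthest from a 2-fold difference. Members, lists and tests were chosen with earlier results of these data known. A ratio to a tissue without counts is a bound against 3 counts over its 8 libraries.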

Additional observations from a re-analysis of the deposited data

Results flagged for a closer look

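Of 107 groups of 8 libraries examined, 15 had a highest or lowest library that stood apart beyond Dixon's 95% critical value. Chance flags about 1 in 20 groups if the values are normally distributed and the groups independent. The values here were not log-transformed and some groups depend on each other, so the expected number of flags is not known. LOC105192919 stood apart at both ends of the comparison, at 72675 CPM in the brain of 239A against 25689 CPM in the next brain and at 47777 CPM in the ovary of 233A against 18578 CPM in the next ovary. The share of counts on the 10 leading genes followed it, at 13% in the brain of 239A and 9.9% in the ovary of 233A, where the 100 leading genes held 22.1%. The brain of 207A stood apart at 4 genes: LOC105194827 (903 CPM), LOC105195168 (18252 CPM), LOC105195102, which is InR-2 (11 CPM, the next brain having 3.64 CPM), and LOC105195084, where it was lowest (3956 CPM). The brain of 235A was highest at 3 genes, with 690 CPM at LOC105194889, 12.1 CPM at LOC105193824 and 5.51 CPM at LOC105208055. In the ovary, LOC105197799 was highest in 233A (2.73 CPM), LOC105201977 lowest in 233A (179 CPM) and LOC105199055 lowest in 222A (440 CPM).

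The brain-ovary difference of 8 named genes differed between monogyne animals and the mean of the polygyne groups by the test of the difference itself. The log2 values, monogyne minus polygyne, were -5.46 for LOC105199339, -2.09 for LOC105206510, -0.74 for LOC105199797, 1.12 for LOC105205675, 2.30 for LOC105199976 and 1.48 for LOC105196318. LOC105203994, the odorant-binding protein gene, had 1.29 (edgeR, adjusted p = 0.0405), and without 16D 1.33 (edgeR, adjusted p = 0.0279). It averaged 0.886 CPM in monogyne ovaries and 1.41, 3.24 and 4.09 CPM in polygyne SB/SB, SB/Sb and Sb/Sb ovaries. Its brain means were also higher in the polygyne groups, at 1587, 1573 and 1872 CPM in the same order against 1336 CPM in monogyne animals. LOC105204527 had 6.5 (adjusted p = 0.0358), but it is the gene without counts in 222A, 235A and 240A and low in 22 of 23 polygyne animals. All SB/Sb and Sb/Sb brains had no count of it, so its fitted value is no measure of size.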

How the results depend on the processing

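The counts of genes between brain and ovary stayed within 1.5 times the main value under every alternative run. Without the replicate block that pairs the tissues of an animal, calls numbered 3914 for the brain and 3870 for the ovary, with 2356 and 2192 past 2-fold. Leaving out each animal gave 3559 to 3777 brain and 3810 to 4026 ovary genes, and 2165 to 2286 and 2233 to 2380 past 2-fold. The 44 genes with an animal effect became 26 to 42 with an animal left out (26 without 235A, 28 without 239A), 150 with limma voom and 302 with DESeq2. Against polygyne SB/SB, 0 genes became 1 without the replicate block and 8 with DESeq2. Against the polygyne mean, 19 became 114 without the replicate block, 163 with voom, 230 with DESeq2 14 with animal 104D kept and 24 without animal 16D. The number of genes detected at 1 count differed by a mean of -590.8, brain minus ovary. Thinning all libraries to 13.2 M counts gave -573.6. At 10 counts, without thinning, the mean difference was 123.8, the other sign. For all of these, the cause was not tested. Of the brain-ovary values of named genes under the alternatives, 888 stayed on their side of the threshold, 15 lost their call, and 9 gained one. No called value changed sign, whereas the 6 genes at nearly the same level in both tissues, none of them called, changed sign 38 times around 0; LOC105196897 lost its call in 7 and LOC105195102 in 5. LOC105199797 lost its call against the polygyne mean with animal 104D kept, at a log2 difference of -0.82 (adjusted p = 0.0537) against -0.74 without 104D. The animal effect of LOC105200113 was lost without 235A (adjusted p = 0.215) and with DESeq2 (0.697).

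Depth limits the genes with few counts: 3 counts over a tissue are 0.02 CPM in the brain and 0.0185 CPM in the ovary. The 8 animals per tissue, 1 kit per tissue and a gene table without product names limit what can be said of gene groups and cell types.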

Other observations

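LOC105203059 on chromosome 16 was among the genes called against the polygyne mean. It averaged 252 ± 176 CPM in monogyne brains and 0.178 ± 0.174 CPM in monogyne ovaries. Polygyne SB/SB, SB/Sb and Sb/Sb brains averaged 915, 632 and 218 CPM, and the ovaries 2.69, 4.53 and 8.59 CPM. Polygyne brains of SB/SB and SB/Sb animals ranged widely, between 112 and 2473 CPM and between 129 and 2048 CPM.

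LOC105196524 on chromosome 7 showed its spread in the ovary. It averaged 29.2 ± 9.83 CPM in monogyne brains and 36.5, 27.6 and 25.2 CPM in polygyne SB/SB, SB/Sb and Sb/Sb brains. Monogyne ovaries averaged 22.1 ± 6.09 CPM, against 40.8 ± 26.1, 82.6 ± 60.4 and 170 ± 146 CPM in the polygyne groups in that order. The Sb/Sb ovaries ran between 26 and 392 CPM. Both genes were picked after their values were seen.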
